A study of Mus musculus with 8 samples.

Results

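Toll-like receptor and NF-κB signalling was described in liver through 44 genes, chosen by name as receptors, adaptors, kinases, NF-κB subunits and inhibitors, and all 44 were found among the 56884 genes of the count tables. These genes and the lists used below were chosen with earlier results of these data known. Poly(A) RNA was sequenced from 3 DIO and 5 DIO + DHA livers, each from a separate mouse and in its own library. All were female C57BL/6J mice, 18 months old, made obese from 2 months of age with a high-fat diet that supplied 45% of its energy as lipids, and all were fasted overnight before the liver was taken. After 4 months on that diet the DIO mice stayed on it, with added tocopherols from month 6 onwards in the amount that the fish oil brought to the other diet. The DIO + DHA mice received the same diet with 15% by weight of the lipids replaced by a fish oil concentrate holding 683.4 mg DHA and 46.7 mg EPA per g, so that the supplement was not DHA alone. Lean and young mice were not analysed here, and the comparison therefore concerned aged obese liver with and without the supplement.

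Toll-like receptors recognise microbial lipids, proteins and nucleic acids and, in liver, are found above all on Kupffer cells, the resident macrophages, although hepatocytes and endothelial cells also carry some of them. Most of these receptors signal through the adaptor MyD88, which assembles the IRAK kinases, the ubiquitin ligase TRAF6 and the kinase TAK1, and leads to the IKK complex. IKK marks the IκB proteins for destruction and so frees NF-κB dimers, which switch on inflammatory genes and also the genes of their own inhibitors, closing a feedback loop. TLR3 and internalised TLR4 use a second adaptor, TRIF, which leads to TBK1 and the transcription factor IRF3.

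NF-κB binds κB sites, and matches to them in the promoters of several members are shown here because the inhibitor Nfkbia was among the genes that changed. The κB consensus, a decamer read on either strand, was searched for in the 250 bases before and 50 bases after the start of the canonical transcript in GRCm39. It was present in 1952 of 21770 protein-coding promoters (8.97%) and in 11 of the 44 member promoters (25%), those of Irak1, Irf3, Ly96, Nfkbia, Nfkbie, Relb, Tab1, Tlr2, Tlr3, Tnfaip3 and Traf3. The members had been chosen as pathway genes, several of them known NF-κB targets, so the share is a description. The stretches below are from the inhibitor genes Nfkbia, Nfkbie and Tnfaip3 and the subunit gene Relb. Each shows a match that lay wholly before the start of the canonical transcript. Relb and Tnfaip3 each held 2 matches, not all of which are shown. Each is read in the direction of the gene, with the κB match in capitals and 10 bases on each side.
Nfkbia: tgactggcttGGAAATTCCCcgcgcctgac
Nfkbie: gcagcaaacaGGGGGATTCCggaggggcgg
Relb: gtgagcagcgGGGGTTTTCCcattcccttt
Tnfaip3: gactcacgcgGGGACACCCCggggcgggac
In GRCm39 these matches were at chr12:55539452-55539461 for Nfkbia, chr17:45866520-45866529 for Nfkbie, chr7:19363451-19363460 for Relb and chr10:18891274-18891283 for Tnfaip3. The gene is on the plus strand for Nfkbie and on the minus strand for Nfkbia, Relb and Tnfaip3. The match of Tnfaip3 lies before its canonical start but within the annotated span of the gene. For Nfkbia the consensus is met on the strand opposite the gene. Of the 7 members that fell, Nfkbia and Tlr2 held a match. Whether any of these sites was occupied was not measured.

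Depth ran from 1723800 counts in DIO replicate 1, the shallowest library, to 5690347 counts, around a median of 4495644. Expression is given as CPM, counts per 1000000 after TMM scaling, and groups were compared by the quasi-likelihood test of edgeR, adjusted by the Benjamini-Hochberg method over all 12412 tested genes. Since 3′-enriched counts were not divided by length, levels were compared between groups and never between genes. The hepatocyte list, 9 genes chosen to check the labelled tissue, summed to 89003 to 103262 CPM across the 8 libraries. The summed level of 20 Kupffer cell and macrophage markers was 1150 to 1250 CPM in the DIO libraries and 648 to 695 CPM in the DIO + DHA libraries (exact two-sided permutation p = 0.0179, the smallest that 56 splits allow, adjusted p = 0.0328 over 11 marker lists). All 5 DIO + DHA libraries also held RNA of other tissues, with 10 skeletal muscle markers at 1222 to 1313 CPM against 30.7 to 34.9 CPM and 9 squamous epithelium markers at 41.6 to 48.7 CPM against 0 to 0.361 CPM (exact permutation p = 0.0179 for both, adjusted p = 0.0328). These differences ran along the diet groups, and their part in the results on the signalling genes was not tested. With scaling factors computed without the muscle and squamous markers, the same 7 members fell. That fit left only these listed markers out of the scaling. It cannot show what other genes of those tissues, or their RNA, did to the counts of the members.

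Of the 39 members with enough counts to test, 7 fell in the DIO + DHA group and 0 rose. This made 17.9% of the tested members lower, where 7.28% of all tested genes were lower and 7.89% higher. Since the members were chosen with earlier results of these data known, these shares are a description. The 7 were Tlr2, Ly86, Myd88, Irak4, Nfkbia, Nfkbiz and Ripk1, spread over the receptors, the adaptors, the kinases and the inhibitors. The other 32 tested members did not pass, and at an unadjusted p under 0.05 there were 10 lower and 0 higher members, beside 12.2% and 13% of all tested genes. The members had 30 negative and 9 positive log2 fold changes and a median of -0.20, beside 0.0011 over all tested genes. That median was -0.12 without DIO replicate 4 and -0.10 with at least 10 counts in every library, and it includes Tlr7, Cd180 and Tnfaip3, which passed the filter on low counts through the DIO group alone, where they were high. Each of the 7 members that fell had enough counts in both groups. The count of lower members depended on the DIO libraries and the test. It was 4 without DIO replicate 4, 3 without DIO replicate 5 and 5 with the Wald test of DESeq2, where 5.15%, 4.99% and 4.84% of all tested genes were lower. With limma-voom at a log-odds B above 0 it was 2, where 3.2% of all tested genes were lower, and no member rose with either tool. Ly86 and Ripk1 were lower under every alternative run.

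**Figure D1:**
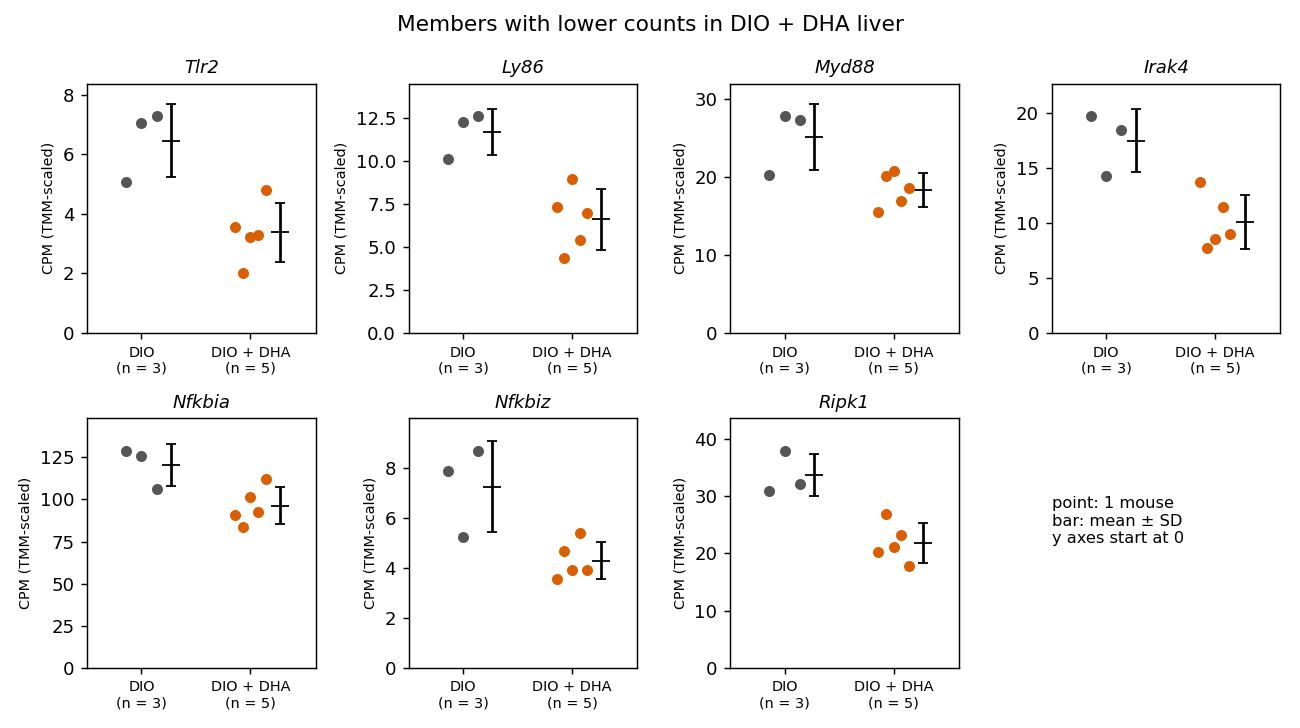
Expression of the 7 members that fell, in CPM on axes that start at 0, with 1 point per mouse and bars for the mean ± SD of the DIO (n = 3) and DIO + DHA (n = 5) groups. The groups are apart for Tlr2, Ly86, Irak4 and Ripk1, and overlap for Myd88, Nfkbia and Nfkbiz.

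Among the receptors of the cell surface, Tlr2, which senses bacterial lipoproteins together with Tlr1 or Tlr6, fell to 0.516 of its DIO level. Tlr2 (ENSMUSG00000027995.11, chr3:83743579-83749074 in GRCm39, minus strand) was at 5.06, 7.03 and 7.28 CPM in DIO replicates 1, 4 and 5, and at 3.57, 2.01, 3.21, 3.28 and 4.80 CPM in DIO + DHA replicates 1, 2, 4, 5 and 6. Every DIO + DHA library lay below every DIO library, although DIO replicate 1 and DIO + DHA replicate 6 were close. The means were 6.46 ± 1.21 (SD, n = 3) and 3.38 ± 0.997 CPM (SD, n = 5), for a log2 fold change of -0.95 (standard error 0.26, 95% confidence interval -1.49 to -0.42, adjusted p = 0.00728 with edgeR's quasi-likelihood test). The adjusted p was 0.0526 without DIO replicate 4, 0.0677 without DIO replicate 5 and 0.0529 with DESeq2, and B was -0.69 with limma-voom. In whole liver RNA, fewer cells of a type and less RNA per cell cannot be told apart.

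Its partner Tlr1 and the flagellin receptor Tlr5 did not pass the test. Tlr1 had 3 to 14 counts per library and a log2 fold change of -0.23 (95% confidence interval -1.05 to 0.59). Tlr5 was at 9.56, 5.95 and 5.32 CPM in the DIO libraries and 3.28 to 5.71 CPM, with a median of 4.92, in the DIO + DHA libraries, a log2 fold change of -0.47 (95% confidence interval -0.99 to 0.05). The groups overlapped for both genes. Tlr4, the lipopolysaccharide receptor, was too low to test, with 6 counts in the DIO libraries together and 17 in the DIO + DHA libraries, and so was Tlr6 with 9 counts in each group. An exact two-sided permutation test on CPM gave p = 0.304 for Tlr4 and 0.893 for Tlr6, and neither test tells a difference from none.

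The endosomal receptors, which bind nucleic acids, were measured from few reads. Tlr7, a sensor of single-stranded RNA, was at 2.81, 1.26 and 1.06 CPM in the DIO libraries and 0.595, 0.335, 0.714, 0.703 and 0.437 CPM in the DIO + DHA libraries, from at most 7 counts in any library. Its groups did not overlap, yet the log2 fold change of -1.30 (95% confidence interval -2.47 to -0.13) did not pass (adjusted p = 0.14, edgeR). Tlr13, which in mice senses bacterial ribosomal RNA, had 2.81, 2.89 and 2.48 CPM in the DIO libraries and 1.19, 1.01, 1.43, 1.87 and 2.402 CPM in the DIO + DHA libraries. These too stood apart, the nearest being DIO + DHA replicate 6 and DIO replicate 5, with a log2 fold change of -0.73 (95% confidence interval -1.52 to 0.06, adjusted p = 0.245 with edgeR). Tlr3, the sensor of double-stranded RNA, ranged from 0.437 to 3.69 CPM in the DIO + DHA libraries alone and gave a log2 fold change of 0.06 (95% confidence interval -0.997 to 1.11). Tlr8 had 4 counts in all 8 libraries together and Tlr9, the sensor of unmethylated DNA, had 1, and neither was tested.

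Of the proteins that sit beside the receptors, Ly86 changed. Ly86 encodes MD-1, the partner of the receptor-like protein Cd180. Ly86 (ENSMUSG00000021423.7, chr13:37529184-37603012 in GRCm39, plus strand) was at 10.1, 12.3 and 12.6 CPM in the DIO libraries and at 7.34, 4.36, 8.92, 5.39 and 6.99 CPM in the DIO + DHA libraries. All DIO + DHA libraries lay below all DIO libraries, with means of 6.60 ± 1.77 CPM (SD, n = 5) and 11.7 ± 1.34 CPM (SD, n = 3). The log2 fold change was -0.86 (standard error 0.20, 95% confidence interval -1.27 to -0.45, adjusted p = 0.00136 with edgeR's quasi-likelihood test). Leaving out any 1 library kept the adjusted p between 0.000719 and 0.0217. Cd180 itself had at most 9 counts in a library, with 0 in DIO + DHA replicates 2 and 4, and a log2 fold change of -1.21 (95% confidence interval -2.47 to 0.06). Ly96, which encodes MD-2, the lipopolysaccharide-binding partner of TLR4, was at 4.43 ± 0.549 (SD, n = 3) and 3.25 ± 0.841 CPM (SD, n = 5) with overlapping groups and did not pass (log2 fold change -0.45, 95% confidence interval -1.05 to 0.15).

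Among the adaptors, 1 of 3 tested genes fell. Myd88, the adaptor shared by most Toll-like receptors and by the interleukin-1 receptor, fell, and Ticam1, which encodes TRIF, did not pass the test. Myd88 (ENSMUSG00000032508.9, chr9:119165000-119170477 in GRCm39, minus strand) was at 20.3, 27.8 and 27.3 CPM in the DIO libraries and at 15.5, 20.1, 20.7, 16.9 and 18.6 CPM in the DIO + DHA libraries. DIO replicate 1, the shallowest library, lay just below DIO + DHA replicate 4, and the other DIO libraries were above all DIO + DHA libraries. The means were 25.1 ± 4.22 (SD, n = 3) and 18.3 ± 2.19 CPM (SD, n = 5), for a log2 fold change of -0.53 (standard error 0.14, 95% confidence interval -0.81 to -0.25, adjusted p = 0.00462 with edgeR's quasi-likelihood test). The adjusted p was 0.0688 without DIO replicate 4 and 0.0530 without DIO replicate 5, and B was -0.66 with limma-voom. Myd88 shares 11.3% of its exon bases with Acaa1a on the other strand, at least 3742 bases from its 3′ end, and Acaa1a had a log2 fold change of 0.04 (adjusted p = 0.804, edgeR).

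Ticam1 was at 4.50, 6.85 and 9.05 CPM in the DIO libraries and 4.59 to 10.3 CPM in the DIO + DHA libraries, with a log2 fold change of 0.04 (95% confidence interval -0.42 to 0.51). Tirap, which brings MyD88 to TLR2 and TLR4, was at 10.7 ± 3.44 (SD, n = 3) and 8.98 ± 1.65 CPM (SD, n = 5), for a log2 fold change of -0.11 (95% confidence interval -0.52 to 0.30). Both overlapped between groups. Whether the changes of Myd88 and Ticam1 differed from each other was not tested. Ticam2, the bridge from TLR4 to TRIF, had 17 counts in all and was not tested with edgeR (exact two-sided permutation p = 1.0).

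Of the 4 IRAK kinases, Irak4, the first kinase recruited by MyD88, fell and the others did not pass. Irak4 (ENSMUSG00000059883.17, chr15:94441524-94479696 in GRCm39, plus strand) was at 19.7, 14.2 and 18.5 CPM in the DIO libraries and at 13.7, 7.71, 8.56, 11.5 and 8.95 CPM in the DIO + DHA libraries. The groups did not overlap, with DIO replicate 4 and DIO + DHA replicate 1 adjacent. The means were 17.5 ± 2.85 (SD, n = 3) and 10.1 ± 2.46 CPM (SD, n = 5), for a log2 fold change of -0.71 (standard error 0.18, 95% confidence interval -1.07 to -0.35, adjusted p = 0.00259 with edgeR's quasi-likelihood test). Without DIO replicate 5 the adjusted p was 0.0514, and B was -0.45 with limma-voom. Irak4 shares 7.87% of its exon bases with Twf1 on the other strand, from 429 bases from its 3′ end onwards, and Twf1 had a log2 fold change of -0.27 (adjusted p = 0.454, edgeR). Irak1, the kinase that IRAK4 phosphorylates, was at 28.1, 32.3 and 32.1 CPM in the DIO libraries and 29.2 to 35.8 CPM in the DIO + DHA libraries, with a log2 fold change of 0.11 (95% confidence interval -0.12 to 0.34). Irak2 had a log2 fold change of -0.06 (95% confidence interval -0.48 to 0.37), and Irak3, the inhibitory member expressed mainly in myeloid cells, one of 0.35 (95% confidence interval -0.44 to 1.14).

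Downstream of the IRAK kinases, 0 of 5 genes of the ubiquitin ligases and the TAK1 complex and 0 of 3 genes of the IKK complex passed edgeR's test, and 0 of them had an unadjusted p under 0.05. Of all tested genes, 15.2% passed in either direction, and at the unadjusted p 12.2% were lower and 13% higher. A count of 0 among so few genes is not far from those shares. Map3k7, which encodes TAK1, was at 13.5 ± 2.39 (SD, n = 3) and 13.2 ± 1.52 CPM (SD, n = 5), for a log2 fold change of 0.02 (95% confidence interval -0.33 to 0.36). Its binding partners Tab1 and Tab2 had log2 fold changes of -0.03 and 0.04, with 95% confidence intervals of -0.57 to 0.51 and -0.20 to 0.29. Traf6 had a log2 fold change of -0.09 (95% confidence interval -0.69 to 0.51). Traf3, a ligase of the TRIF and non-canonical branches, was the 1 member whose DIO + DHA libraries all lay above its DIO libraries, as 9.54% of all tested genes did. It was at 2.25, 2.705 and 2.84 CPM in the DIO libraries and 3.57, 7.71, 3.21, 3.28 and 3.93 CPM in the DIO + DHA libraries, where replicate 2 stood far above the rest, and did not pass (log2 fold change 0.64, adjusted p = 0.213 with edgeR).

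The kinases of the IKK complex were among the best measured members. Chuk, which encodes IKKα, was at 37.1, 39.5 and 36.0 CPM in the DIO libraries and 33.1 to 50.3 CPM in the DIO + DHA libraries, with a log2 fold change of 0.15 (95% confidence interval -0.09 to 0.38). Ikbkb, which encodes IKKβ, was at 32.6, 48.7 and 49.2 CPM and at 35.6 to 42.5 CPM, a log2 fold change of -0.20 (95% confidence interval -0.42 to 0.02). The scaffold Ikbkg was at 22.5 ± 0.356 (SD, n = 3) and 22.3 ± 2.08 CPM (SD, n = 5), for a log2 fold change of -0.02 (95% confidence interval -0.29 to 0.25). A change of the size seen for Ripk1 or Irak4 lay outside the intervals of these 3 genes. One of the size seen for Nfkbia, -0.31, lay inside the interval of Ikbkb.

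**Figure D2:**
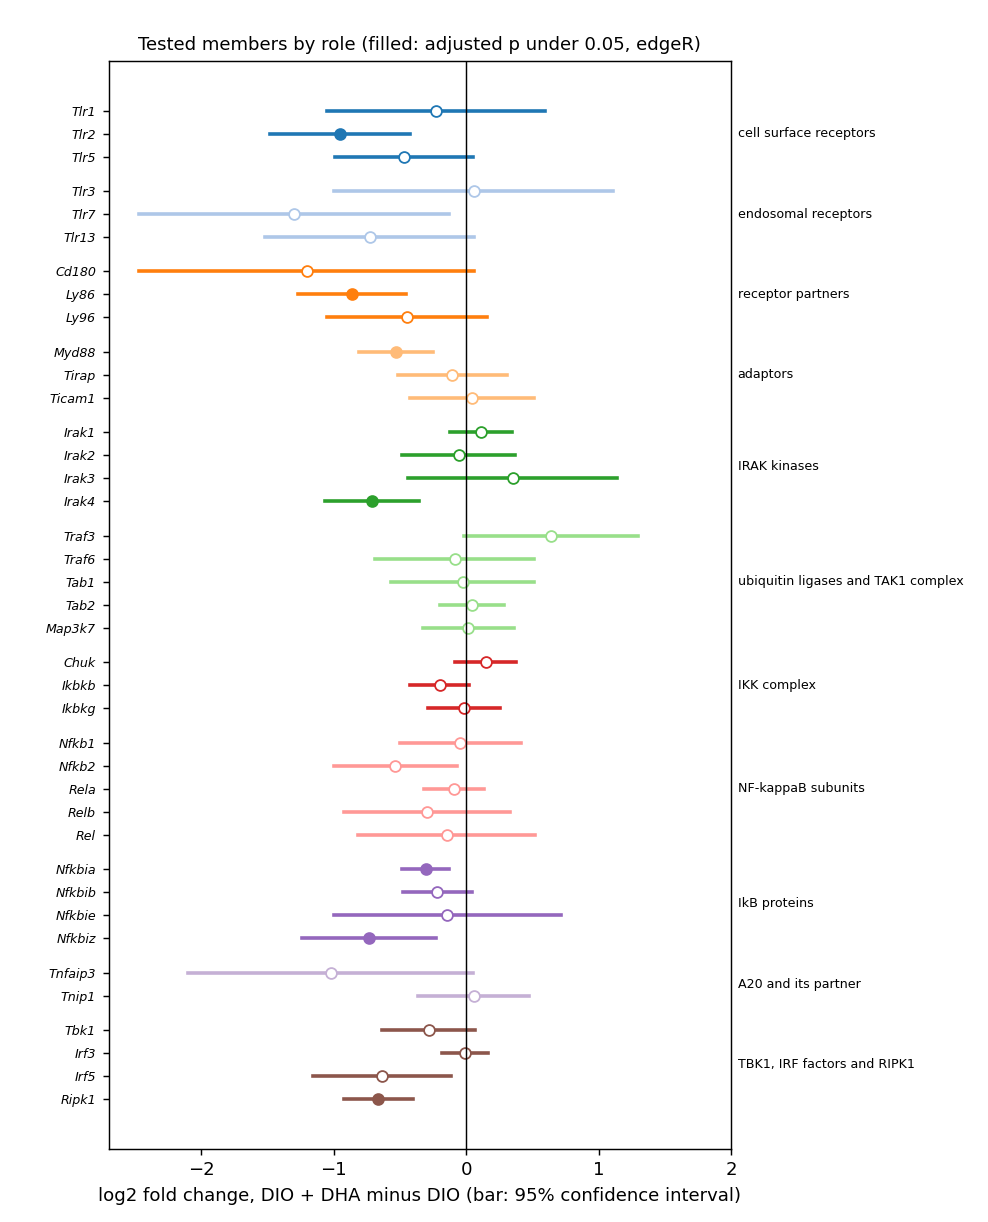
Log2 fold change of each of the 39 tested members between DIO + DHA and DIO liver, grouped by role, with bars for the 95% confidence interval and filled points for an adjusted p under 0.05 in edgeR's quasi-likelihood test. The 7 filled points all lie below 0, from -0.95 for Tlr2 to -0.31 for Nfkbia, while most of the TAK1 complex lies near 0. The IKK complex runs from -0.20 for Ikbkb to 0.15 for Chuk, with intervals that include 0.

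Where 15.2% of all tested genes passed edgeR's test in either direction, none of the 5 NF-κB subunit genes did, with 1 of them at an unadjusted p under 0.05. Their log2 fold changes were negative, but those of Nfkb1, Relb and Rel turned positive, up to 0.22, 0.16 and 0.04, in fits without 1 library. Rela, which encodes the main transactivating subunit p65, was at 34.3, 36.6 and 38.9 CPM in the DIO libraries and 30.2 to 38.0 CPM in the DIO + DHA libraries, a log2 fold change of -0.09 (95% confidence interval -0.32 to 0.14). Nfkb1, its usual partner, was at 7.13 ± 1.59 (SD, n = 3) and 6.84 ± 1.41 CPM (SD, n = 5), for a log2 fold change of -0.04 (95% confidence interval -0.50 to 0.41). Nfkb2, the precursor of the non-canonical pathway, had the largest estimate of the 5, at 5.06, 8.11 and 9.58 CPM against 4.17, 5.70, 7.14, 6.56 and 5.24 CPM with overlapping groups (log2 fold change -0.54, adjusted p = 0.12 with edgeR). Nfkb2 shares 20.5% of its exon bases with genes on the other strand, including the last bases of its 3′ end. Relb and Rel had log2 fold changes of -0.30 (95% confidence interval -0.92 to 0.33) and -0.15 (95% confidence interval -0.82 to 0.52).

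Among the IκB proteins, 2 of the 4 genes fell, and they are of different kinds. Nfkbia encodes IκBα, the cytoplasmic inhibitor that NF-κB itself induces, and Nfkbiz encodes IκBζ, a nuclear cofactor that helps switch on a second wave of target genes. Nfkbia (ENSMUSG00000021025.9, chr12:55536195-55539432 in GRCm39, minus strand) was at 128.8, 126.0 and 105.9 CPM in the DIO libraries and at 91.0, 83.5, 101.7, 92.7 and 112.2 CPM in the DIO + DHA libraries. DIO + DHA replicate 6 lay above DIO replicate 5, so the groups overlapped. The means were 120.3 ± 12.5 (SD, n = 3) and 96.2 ± 11.1 CPM (SD, n = 5), for a log2 fold change of -0.31 (standard error 0.088, 95% confidence interval -0.48 to -0.13, adjusted p = 0.0104 with edgeR's quasi-likelihood test). The adjusted p was 0.0526 without DIO replicate 1 and 0.126 without DIO replicate 4, and B was -2.95 with limma-voom. Nfkbia had the smallest change of the 7, and the κB match shown above for its promoter starts 29 bases before the transcript start.

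Nfkbiz (ENSMUSG00000035356.18, chr16:55631738-55659262 in GRCm39, minus strand) was at 7.88, 5.23 and 8.69 CPM in the DIO libraries and at 3.57, 4.69, 3.92, 5.39 and 3.93 CPM in the DIO + DHA libraries. DIO replicate 4 lay just below DIO + DHA replicate 5, and the remaining DIO libraries stood above. The log2 fold change was -0.73 (standard error 0.25, 95% confidence interval -1.24 to -0.23, adjusted p = 0.0375 with edgeR's quasi-likelihood test). It was the least stable of the 7, with an adjusted p of 0.413 without DIO replicate 5, 0.0785 without DIO replicate 1, 0.0978, 0.0620 and 0.0621 without DIO + DHA replicates 1, 4 and 6, 0.137 with DESeq2 and 0.0592 when all genes with a count were tested, and B was -3.02 with limma-voom. Nfkbib was at 24.2, 25.8 and 26.1 CPM against 20.1 to 24.3 CPM, with overlapping groups (log2 fold change -0.22, 95% confidence interval -0.48 to 0.04). Nfkbie had at most 13 counts in a library and a log2 fold change of -0.14 (95% confidence interval -1.002 to 0.72).

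Tnfaip3 encodes the deubiquitinase A20, another brake induced by NF-κB, and Tnip1 encodes a protein that binds A20. Tnfaip3 was at 1.13, 2.52 and 1.06 CPM in the DIO libraries and 0.234 to 1.43 CPM in the DIO + DHA libraries, from 1 to 14 counts per library, and did not pass (log2 fold change -1.02, 95% confidence interval -2.10 to 0.05, adjusted p = 0.225 with edgeR). Tnip1 had a log2 fold change of 0.06 (95% confidence interval -0.36 to 0.47). Of the 3 genes other than Nfkbia shown by sequence, Nfkbie, Relb and Tnfaip3, none passed edgeR's test, and 0 had an unadjusted p under 0.05. Among all tested genes 15.2% passed in either direction.

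In the last group of members, Ripk1 fell with the smallest p of the 39 tested. RIPK1 is a scaffold and kinase of the TNF receptor, which TRIF also binds, and it links these receptors to NF-κB or to cell death. Ripk1 (ENSMUSG00000021408.16, chr13:34186346-34221130 in GRCm39, plus strand) was at 30.9, 37.9 and 32.1 CPM in the DIO libraries and at 20.2, 26.8, 21.1, 23.2 and 17.7 CPM in the DIO + DHA libraries. No library of one group reached the range of the other. The means were 33.6 ± 3.71 (SD, n = 3) and 21.8 ± 3.43 CPM (SD, n = 5), for a log2 fold change of -0.66 (standard error 0.13, 95% confidence interval -0.92 to -0.40, adjusted p = 8.91e-05 with edgeR's quasi-likelihood test). With any 1 library left out the adjusted p was between 3.12e-05 and 0.012. Ripk1 shares 9.01% of its exon bases with Gm17084, which had 0 counts, and Serpinb6a, which had a log2 fold change of 0.12 (adjusted p = 0.596, edgeR).

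The kinase Tbk1 and its substrate Irf3, the arm that drives type I interferon, did not pass. Tbk1 was at 11.3, 18.9 and 14.2 CPM in the DIO libraries and 9.17 to 15.1 CPM in the DIO + DHA libraries, a log2 fold change of -0.28 (95% confidence interval -0.63 to 0.07). Irf3 was at 80.4, 97.4 and 104.9 CPM and at 91.0 to 101.2 CPM, a log2 fold change of -0.01 with the narrow 95% confidence interval of -0.18 to 0.16. Irf5, which acts below MyD88 in macrophages, was at 4.50, 5.41 and 7.81 CPM against 4.17, 5.03, 3.21, 3.51 and 4.15 CPM, with overlap between DIO replicate 1 and DIO + DHA replicate 2. At a log2 fold change of -0.63 it did not pass (adjusted p = 0.0958 with edgeR), and 14.1% of its exon bases, close to its 3′ end, are shared with Tnpo3 on the other strand.

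In all, 6 of the 39 tested members had every DIO + DHA library below every DIO library, namely Tlr2, Tlr7, Tlr13, Ly86, Irak4 and Ripk1, where 8.88% of all tested genes did. Tlr7 is in this count through its DIO libraries alone, since every DIO + DHA library had under 5 counts.

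Beyond the 44 members, 60 of 66 further genes of the pathway could be tested, and 15 fell and 1 rose, around a median log2 fold change of -0.19. Of all tested genes, 7.28% were lower and 7.89% higher, around a median of 0.0011. These lists too were chosen with earlier results known, so the shares are a description. The number of further pathway genes that fell was 9 with DESeq2 and 6 with limma-voom, and 1 rose with each. With these tools 4.84% and 3.2% of all tested genes were lower. The receptor accessories held 6 of the 15. Lbp, which encodes the plasma protein that hands lipopolysaccharide to CD14, was at 128.8 ± 9.81 (SD, n = 3) and 95.3 ± 5.73 CPM (SD, n = 5), without overlap (log2 fold change -0.45, adjusted p = 2.81e-05, edgeR). Unc93b1, the chaperone that carries the endosomal receptors, was at 36.6, 28.3 and 31.2 CPM against 17.7 to 22.8 CPM (log2 fold change -0.61, adjusted p = 0.00033, edgeR). The proteases that trim those receptors in the endolysosome also fell, with log2 fold changes of -1.08 for Ctss, -0.69 for Lgmn and -0.42 for Ctsb. Sigirr, an inhibitory receptor of the family, fell by 0.38 on the log2 scale.

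The 1 gene that rose was Hsp90b1, which encodes gp96, a chaperone of the endoplasmic reticulum needed to fold most Toll-like receptors. It was at 443.9, 432.4 and 416.8 CPM in the DIO libraries and 564.8 to 606.3 CPM in the DIO + DHA libraries, a log2 fold change of 0.45 (adjusted p = 3.59e-07, edgeR). So Hsp90b1 and Unc93b1, the chaperone of the endosomal receptors alone, moved in opposite directions. Cnpy3, another receptor accessory named after its values were seen, did not pass (log2 fold change -0.08, 95% confidence interval -0.32 to 0.17, adjusted p = 0.77 with edgeR). Cd14, named after its values were seen, was at 14.8 ± 1.56 (SD, n = 3) and 13.9 ± 1.09 CPM (SD, n = 5) and did not pass (log2 fold change -0.09, 95% confidence interval -0.41 to 0.24).

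The other branches held the remaining 9 lower genes, of which Jun alone also passed with limma-voom. In the TNF receptor branch, Tnfrsf1a, the TNF receptor itself, fell by 0.35 and Cflar, an inhibitor of caspase-8, fell by 0.30 on the log2 scale. Ripk3, the necroptosis kinase that RIPK1 activates, had a log2 fold change of -1.93 (adjusted p = 0.0131, edgeR) from 37 counts in all and enough counts in the DIO group alone, with overlapping groups and 0 counts in DIO replicate 1. Among the remaining branches, Irf7 and Irf1 fell by 0.33 and 0.41, Mapk14 and Jun by 0.35 and 0.62, the nuclear IκB gene Bcl3 by 0.52 and Trim30a by 0.79 on the log2 scale.

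Of 32 genes known as NF-κB targets, 25 were tested, 6 fell and 0 rose by edgeR, with 8 lower and 3 higher at an unadjusted p under 0.05, and the median log2 fold change was -0.54. Of all tested genes, 7.28% were lower and 7.89% higher by edgeR, around a median of 0.0011. The target list was also chosen with earlier results known, so this is a description. At the unadjusted p, 12.2% of all tested genes were lower and 13% higher, so the 3 higher targets are near that share. Of the 25, 7 passed the filter on low counts through the DIO group alone, where they were high, and 1, Ier3, through the DIO + DHA group alone. Ccl4 and Cxcl10 were among the 7, and 4 targets fell among the 17 with enough counts in both groups. DESeq2 and limma-voom also gave 0 that rose, while 5 of the 8 fits without 1 library gave 1. This was Bcl2l1 without DIO replicate 5 (adjusted p = 0.0399, edgeR) and Ier3 without DIO replicate 1 or DIO + DHA replicates 2, 5 or 6 (adjusted p from 0.0272 to 0.0466, edgeR). The 6 were chemokines and an adhesion molecule, namely Ccl4, Ccl5, Cxcl1, Cxcl9, Cxcl10 and Vcam1. Ccl5, one of the 2 targets with the highest CPM, was at 104.6, 111.4 and 93.7 CPM in the DIO libraries and 31.0 to 35.3 CPM in the DIO + DHA libraries, a log2 fold change of -1.64 (adjusted p = 2.58e-21, edgeR). Sod2, the other, encodes the mitochondrial superoxide dismutase and was at 211.4 ± 12.3 (SD, n = 3) and 210.8 ± 15.0 CPM (SD, n = 5).

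Ccl4 and Ccl5 are also products of T and NK cells, and Cxcl9 and Cxcl10 are also induced by interferon. The summed level of 14 T and NK cell markers was 50.8 to 62.4 CPM in the DIO libraries and 21.1 to 27.1 CPM in the DIO + DHA libraries (exact permutation p = 0.0179, adjusted p = 0.0328 over 11 lists), 7 of its 10 tested genes fell, 3 of them with enough counts in the DIO group alone, and its part in the target results was not tested. Nkg7, Cd3g and Cd3d, the markers of that list with the highest CPM, had log2 fold changes of -1.63, -0.87 and -0.52, and Cd3d did not pass. Cxcl1, a neutrophil attractant, was at 16.3, 16.6 and 17.9 CPM against 5.03 to 6.42 CPM, a log2 fold change of -1.56 (adjusted p = 9.81e-10, edgeR). Vcam1 was at 33.2, 30.1 and 32.3 CPM against 10.5 to 14.1 CPM, a log2 fold change of -1.29 (adjusted p = 6.97e-11, edgeR). Some classical targets, named after their values were seen, gave almost no reads. Tnf had 6 counts over the 8 libraries, and Il6, Sele and Ptgs2 had 0, which allows up to 3 counts each. Il1b had a log2 fold change of 0.20 and did not pass.

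**Figure D3:**
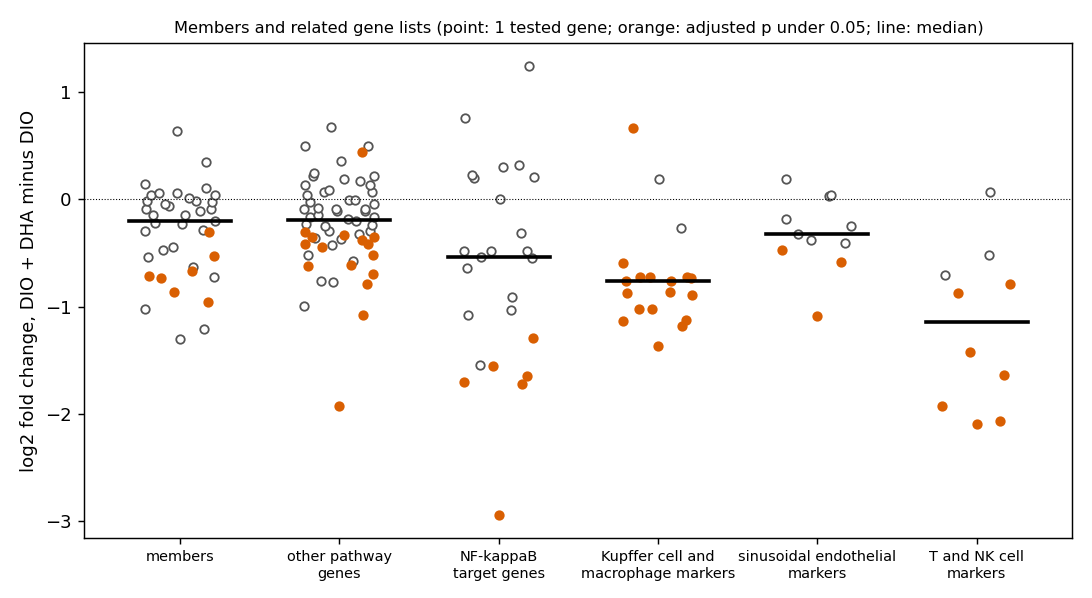
Log2 fold change of each tested gene in 6 lists, the 39 members, 60 other pathway genes, 25 NF-κB target genes, 19 macrophage markers, 11 sinusoidal endothelial markers and 10 T and NK cell markers, with 1 point per gene, filled where edgeR's adjusted p was under 0.05, and a line at the median. The median is -0.20 for the members, -0.54 for the NF-κB targets and -0.76 for the macrophage markers. In these 3 lists, 3 members, 7 targets and 0 macrophage markers passed the filter on low counts through the DIO group alone, where they were high.

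Most of the macrophage markers fell, where 7.28% of all tested genes were lower. Of 19 tested markers, 16 fell and 1 rose, around a median log2 fold change of -0.76, Folr2 had 3 counts in all and was not tested, and the 3 with the highest CPM, C1qb, Cd5l and Lyz2, fell by 1.03, 1.12 and 0.72 on the log2 scale. Marco, Timd4 and Cd163, named after their values were seen, went otherwise. Marco rose by 0.66, and Timd4 and Cd163 did not pass. The summed level of 11 sinusoidal endothelial markers was 249.6 to 279.0 CPM in the DIO libraries and 186.5 to 212.5 CPM in the DIO + DHA libraries (exact permutation p = 0.0179, adjusted p = 0.0328), and that of 10 stellate cell markers was 332.3 to 344.8 CPM against 293.4 to 316.2 CPM with the same p-values. By gene, 3 of 11 sinusoidal markers fell, with Clec4g, Stab2 and Fcgr2b at the highest CPM and log2 fold changes of -0.59, -0.32 and -0.19. Of 10 stellate markers 3 fell and 1, Des, rose by 3.53 on the log2 scale, while 59.5% of the summed level came from Dcn, which did not pass, and Colec11 and Rgs5, next in CPM, fell by 0.28 and 0.45. Des is also a muscle gene. The neutrophil and monocyte, B cell, dendritic cell, cholangiocyte and hepatocyte lists overlapped between groups, with exact permutation p-values from 0.321 to 0.625. Some of these sums rest on single genes, with 91.9% of the dendritic cell sum from Bst2, 86.5% of the cholangiocyte sum from Spp1, 61.5% of the B cell sum from Igkc and 44.9% of the hepatocyte sum from Alb. By gene, 4 of 9 hepatocyte markers fell and 1 rose. Among them were Hnf4a and Fgb with log2 fold changes of -0.53 and -0.51 and Apoa1 with 0.52. The cholangiocyte marker Sox9 rose by 0.97 and the dendritic cell marker Itgax fell by 1.94 on the log2 scale. Itgax had 33 counts in all and enough counts in the DIO group alone, where it was high. These genes were named after their values were seen.

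Counts of a member were also set against other counts of the same library, for pairs chosen after the values were seen and therefore without a test. Per Irak1 count, Irak4 had 0.441 to 0.700 counts in the DIO libraries and 0.242 to 0.392 in the DIO + DHA libraries. Per Tbk1 count, Ripk1 had 2.00 to 2.75 and 1.42 to 1.93. Neither ratio overlapped between groups, whereas Myd88 per Ticam1 and Nfkbia per Nfkbib did. Set against 1000 counts of the macrophage markers, which themselves fell, Tlr2 gave 4.27 to 6.12 in the DIO libraries and 3.05 to 6.92 in the DIO + DHA libraries, and Ly86 gave 8.55 to 10.7 and 6.62 to 13.8. The groups overlapped for both, as they did for Myd88, Irak4, Nfkbiz and Ripk1. For Nfkbia the ratio was 84.7 to 109.6 in the DIO libraries and 126.7 to 161.6 in the DIO + DHA libraries, higher in all 5 of them. The mean marker sum in DIO + DHA was 0.558 of that in DIO. A member with unchanged CPM would therefore also give a higher ratio, and one that fell less than the markers would too. What these ratios owe to cell content was not tested.

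**Figure D4:**
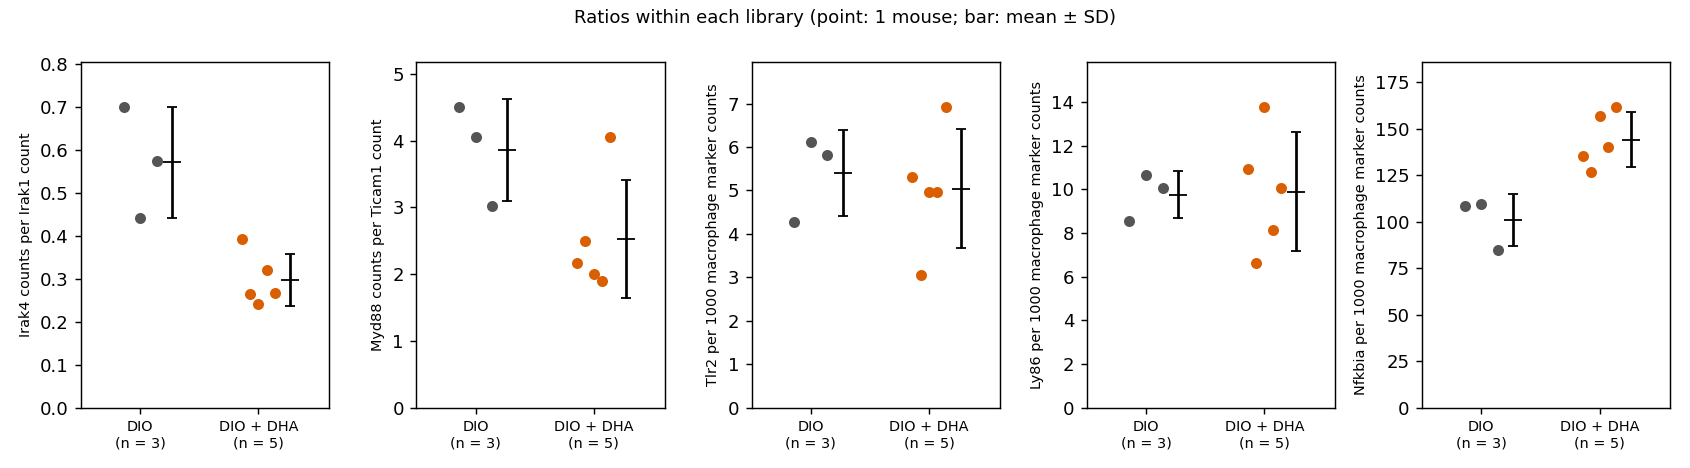
Counts of Irak4 per Irak1 count, of Myd88 per Ticam1 count, and of Tlr2, Ly86 and Nfkbia per 1000 macrophage marker counts, with 1 point per mouse and bars for the mean ± SD of the DIO (n = 3) and DIO + DHA (n = 5) groups, on axes that start at 0. The groups overlap for Myd88, Tlr2 and Ly86, and are apart for Irak4, lower in DIO + DHA, and for Nfkbia, higher in DIO + DHA. The summed macrophage markers were themselves lower in DIO + DHA, which raises every ratio to them.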

How the data were processed

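Per the paper's methods and the labels, the libraries were an adaptation of SCRB-seq, which reads mostly 3′ ends. The authors aligned trimmed reads to GRCm39 (STAR 2.7.9a) and assigned them to GENCODE mouse release 33 exons (featureCounts 1.6.0). The deposited values are raw counts per gene. Per the file headers, no strand was used, multi-mapping reads were dropped and so were reads in exons of overlapping genes. Primers carried unique molecular identifiers. Whether these were collapsed is not given in the sources used here, so limits from counts cover counting error only.

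Names came from GENCODE mouse release 39 (56323 of 56884 identifiers), and all 44 members matched. Groups came from the sample labels, which give all libraries the same batch. Same-group libraries differed beyond counting noise (chi-square per degree of freedom 1.82 to 4.69 over the 13 within-group pairs). As in the methods, genes were left out where, in both groups, over 50% of libraries had fewer than 5 counts. edgeR 4.0.16 in R 4.3.3 tested the rest with TMM scaling, robust dispersions and Benjamini-Hochberg adjustment at 0.05. Marker sums were compared by exact two-sided permutation. Promoters were read from the GRCm39 sequence. Tested on simulated data, the fit often missed changes of genes under 10 CPM; a first target for recovery was not met and was replaced.

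The members and lists were chosen with earlier results of these data known. All members are named, and by rule, of the pathway and target lists, genes that passed or had the 2 highest CPM, and of marker lists those with the 3 highest CPM, not all of which the text needed. Exceptions are marked. Alternatives were other scalings, DESeq2 1.42.0, limma-voom 3.58.1 with B above 0, other filters, a replicate block and leaving out each library. Replicate numbers 1, 4 and 5 occur in both groups, but same-numbered libraries did not deviate together.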

Additional observations from a re-analysis of the deposited data

Results flagged for a closer look

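Of 39 members tested in the 5 DIO + DHA libraries for a value far from the others by Dixon's test, 2 were picked out, where chance picks out about 5% of groups. Traf3 was at 7.71 CPM in DIO + DHA replicate 2, where the other libraries of the group started at 3.21 CPM and the median was 3.57 CPM. Tnip1 was at 11.01 CPM in DIO + DHA replicate 5, where the lowest library of the group was at 7.37 CPM and the median was 7.64 CPM. Neither gene passed edgeR's test between the groups.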

How the results depend on the processing

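Of 246 recomputed counts, medians, marker ratios and CPM differences of members below the filter, 230 were taken as unchanged. For counts this meant staying within 1.5 times. For the median it meant staying within 0.0742, the SD of the members' median between libraries of a group. Ratios and CPM differences had to keep their side of the p threshold. Of the single members' values, 585 stayed on their side of the threshold, 21 no longer passed it, and 0 called ones turned direction. Most of these values belong to the 32 tested members that were not called and had no call to lose. The 21 losses all fell on Nfkbiz, Tlr2, Myd88, Nfkbia and Irak4. With limma-voom, 860 genes, 2 lower members and 6 lower genes of the other pathway lists passed. With DESeq2 the last number was 9. With at least 10 counts in every library, 21 members were tested, 6 fell and their median log2 fold change was -0.10. With 1 library left out, lower members numbered 3 to 7, their median was -0.25 to -0.12, NF-κB targets that rose 0 to 1, and the dendritic cell marker ratio of DIO + DHA to DIO 0.916 to 0.987, with an exact permutation p of 0.0476 without DIO replicate 1.

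Same-numbered libraries had correlations of deviations of -0.0133, -0.0135 and -0.0111, so the numbers do not pair them. With a replicate block, 6 members and 1538 genes passed, with 9 lower and 2 higher genes of the other pathway lists. DIO + DHA replicates 2 and 6 add nothing to that fit.

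The DIO group had 3 libraries, and leaving out DIO replicate 1, 4 or 5 lowered the 7 lower members to 5, 4 and 3.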
